A study of Mus musculus with 2 samples.

Results

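The 9 genes described here make, bind, sense and degrade retinoic acid: Aldh1a1, Aldh1a2, Aldh1a3, Crabp1, Crabp2, Stra6, Rarb, Rarg and Cyp26b1. They were chosen by name, with earlier results of these data known, and every non-control probe that carries one of the 9 names was used. This gave 14 of the 41174 probes and 9 of the 27745 gene names on the array. The samples were primary mouse embryonic fibroblasts (MEFs), the connective tissue cells that grow out of cultured embryos, from C57BL/6J mice, compared on 2 two-colour Agilent arrays. One RNA was labelled LATS2-/- (KO) and the other LATS2+/+ (WT), the cells had no treatment, and some label fields spell the genotype LAT2. On the first array the RNA labelled KO carried Cy5 and the RNA labelled WT carried Cy3, and the second array used the opposite dyes. Nothing in the labels tells how many embryos or cultures gave each RNA or whether both arrays held the same preparations. The arrays were therefore counted as 1 replicate, no difference between genotypes has a replicate check, and the values below are descriptions with no test.

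The check of the targeted gene did not settle the label. Of 4 Lats2 probes, 3 gave more signal in the RNA labelled KO, against the label. Their mean log2 ratios of KO over WT were 0.56, 0.57 and 0.63. These 3 lie close together (mm8 chr14:56644080-56645305, minus strand), and the first and second overlap, so they are not separate checks. The fourth lies upstream of them on the minus strand (mm8 chr14:56676512-56676571) and gave -0.35. Which part of Lats2 the allele removes is not given in the labels, and whether a probe lies inside it was not analysed here. Every direction below is therefore that of the RNA labelled KO against the RNA labelled WT. Of the fibroblast markers, 9 stood well above background in the RNA labelled KO, where Vim did so on 1 array, and all 10 in the RNA labelled WT. Over the 22357 probes well above background in both RNAs, the arrays gave the same log2 ratio with an SD of 0.137 for a single probe. No spot was saturated.

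Retinoic acid is the hormone-like product of vitamin A. Retinol is carried into cells, among other routes through the membrane receptor Stra6, oxidised to retinal by alcohol and retinol dehydrogenases, and oxidised once more to retinoic acid by the retinaldehyde dehydrogenases of the Aldh1a family. Crabp1 and Crabp2 bind retinoic acid in the cytoplasm. Receptors such as Rarb and Rarg, paired with retinoid X receptors, switch genes on in its presence, and the Cyp26 enzymes break it down. In embryos the enzymes that make and break retinoic acid lie in different tissues and set up gradients.

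The sharpest difference was in enzymes at both ends of the pathway. Aldh1a3, which makes retinoic acid, was 42.7-fold lower in the RNA labelled KO, and Cyp26b1, which degrades it, was 8.21-fold lower. The binding protein gene Crabp1 was 2.39-fold lower, while Aldh1a1, another retinoic acid producing enzyme, was 2.24-fold higher. A gene was called when each array put it at or beyond a log2 ratio of 1 or of -1, with the same sign on both, and its probe was well above background on both arrays in the RNA where it was higher. By that rule 3 of the 9 genes were lower and 1 was higher. The calls of Crabp1 and Aldh1a1 did not hold on each array with median centring, and that of Aldh1a1 missed the threshold of the methods' t-test. Among all 15877 genes well above background in at least 1 RNA, 2.59% were called lower and 2.95% higher. The 9 genes were chosen with this contrast known, so nothing is read from their count against that share. Of the remaining 5 genes, Stra6, Rarb and Rarg were measured in both RNAs and not called, and Aldh1a2 and Crabp2 were not well above background in either. These are mixed cultures measured in bulk, in which fewer cells of a type and less RNA per cell cannot be told apart.

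**Figure D1:**
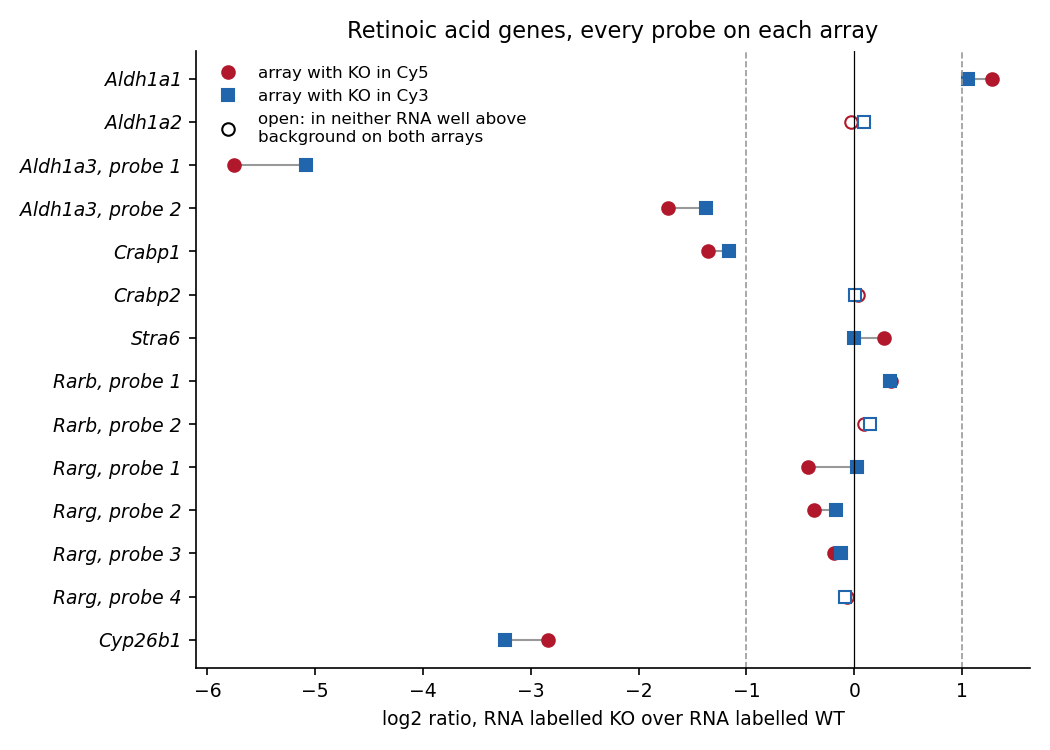
Log2 ratio of the RNA labelled KO over the RNA labelled WT (horizontal axis) for each of the 14 probes (vertical axis), with circles for the array with KO in Cy5, squares for the array with KO in Cy3, a line joining both, and dashed lines at 2-fold. Both Aldh1a3 probes, Crabp1 and Cyp26b1 lie left of -1 on each array, Aldh1a1 lies right of 1, and the other probes lie between -0.43 and 0.34.

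Among the enzymes that make retinoic acid, Aldh1a3 stood apart. Its brightest probe (mm8 chr7:66269849-66269908, minus strand) had a log2 signal of 11.96 and 12.07 in the RNA labelled WT, on the arrays with KO in Cy5 and in Cy3. In the RNA labelled KO the same probe read 6.20 and 6.99. The log2 ratios were -5.75 and -5.08, with a mean of -5.42, so the RNA labelled KO held 2.34% of the signal in the RNA labelled WT. The size depended on how the dim signal was corrected: the mean log2 ratio was -6.21 with an offset of 10 and -7.02 with Feature Extraction's own ratio. It was the lowest ratio among the 15877 genes. What was left in the RNA labelled KO was dim but flagged well above background on both arrays, at 91.3 units over a local background of 43 and at 59.8 over 30.

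The other Aldh1a3 probe (mm8 chr7:66287971-66288030) lies upstream of the first on the minus strand and gave a smaller change in the same direction. Its log2 signal was 7.63 and 7.82 in the RNA labelled WT, against 5.90 and 6.44 in the RNA labelled KO. The log2 ratios were -1.73 and -1.38, with a mean of -1.55. In the RNA labelled KO this probe was well above background on 1 array of 2, so its ratio there rests on signal close to background. The probes agree on direction and differ in size by more than the spread between the arrays.

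Aldh1a1, a retinaldehyde dehydrogenase active in adult tissues such as liver, went the other way. Its probe (mm8 chr19:20710371-20710430, plus strand) had a log2 signal of 9.52 and 9.36 in the RNA labelled KO and of 8.24 and 8.31 in the RNA labelled WT. The probe was well above background on both arrays in both RNAs. The log2 ratios were 1.28 and 1.06, with a mean of 1.17, rank 405 from the highest among 15877 genes. Aldh1a7, a near-identical copy and the next gene on the chromosome, was higher still, as given below, and signal from one copy on the other's probe could not be separated here.

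Aldh1a2, the main retinoic acid producing enzyme of the early embryo, was not detected. Its probe (mm8 chr9:71094684-71094743) read 6.16 and 6.10 in the RNA labelled KO and 6.19 and 6.01 in the RNA labelled WT, and it was well above background on neither array in either RNA. Its log2 ratios, -0.03 and 0.09, therefore say nothing about a difference. Of the 3 Aldh1a enzymes, then, Aldh1a3 was bright in the RNA labelled WT alone, Aldh1a1 was measured in both RNAs and higher in that labelled KO, and Aldh1a2 was below the reach of the array in both.

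**Figure D2:**
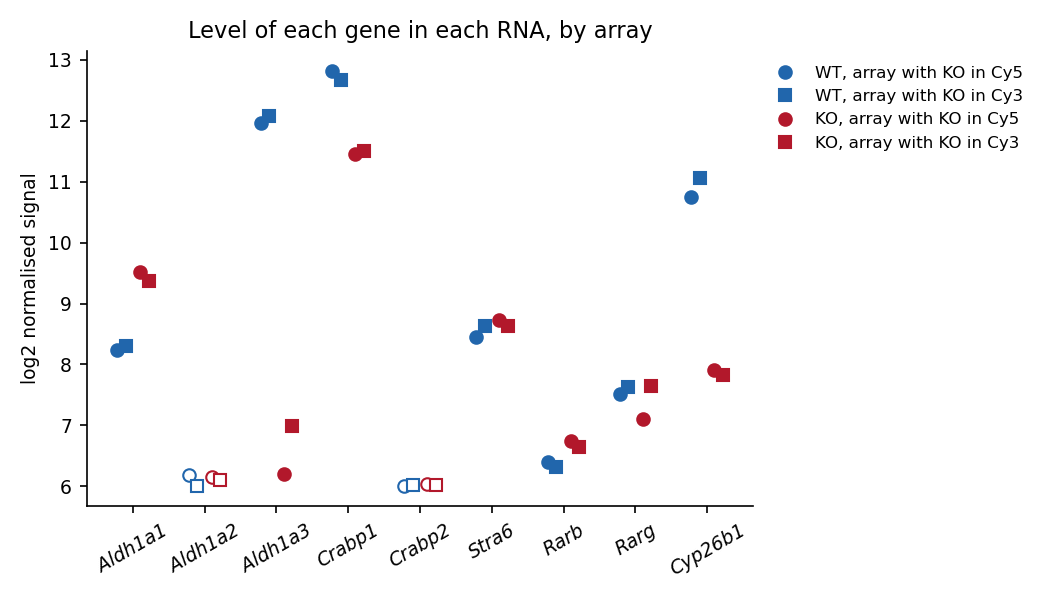
Log2 normalised signal (vertical axis) of the probe that stands for each gene, in the RNA labelled WT (blue) and KO (red) on each array, with open symbols where neither RNA was well above background. Aldh1a3 falls from about 12 to between 6.20 and 6.99 and Cyp26b1 from about 11 to 7.91 and 7.82, and heights are comparable within a gene, not between genes.

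The cytoplasmic binding proteins were represented by Crabp1 alone. Its probe (mm8 chr9:54566522-54566581, plus strand) was bright in both RNAs, with a log2 signal of 12.81 and 12.67 in the RNA labelled WT and of 11.46 and 11.51 in the RNA labelled KO. It was well above background on both arrays in each RNA. The log2 ratios were -1.35 and -1.16, with a mean of -1.26, rank 269 from the lowest, so 41.8% of the signal remained. Crabp2, which carries retinoic acid to its nuclear receptors, was not well above background in either RNA. Its probe (mm8 chr3:88034687-88034746) read between 6.01 and 6.04 in all 4 channels.

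Stra6, the cell surface receptor for retinol bound to its serum carrier, did not reach the threshold. Its log2 signal was 8.73 and 8.62 in the RNA labelled KO and 8.46 and 8.62 in the RNA labelled WT. The log2 ratios were 0.28 and 0.00, so a small excess on the first array was not seen on the second. The coordinates of this probe span 612 bases (mm8 chr9:57950709-57951320), against 60 for a probe that lies in 1 block.

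Rarb and Rarg, the receptors of the set, differed little. The Rarb probe (mm8 chr14:15224264-15224323, minus strand) was printed in 10 spots, of which 10 were used on the first array and 9 on the second. Its log2 ratio was 0.337 ± 0.101 (SD over 10 spots) on the array with KO in Cy5 and 0.333 ± 0.153 (SD over 9 spots) on the array with KO in Cy3. Every spot had a positive ratio, from 0.128 to 0.559. The spots share 1 labelled RNA on each array, so this spread is that of printing and reading. The probe was dim, with raw signals of 101 and 60.8 units in the RNA labelled KO and 49.2 and 69.0 in the RNA labelled WT over local backgrounds of 29.8 to 35. Its value depended on how the background was handled: with Feature Extraction's own ratio it was 1.18 and 1.22 on the arrays and met the threshold. A further Rarb probe, with coordinates that span 26709 bases, was not above background in either RNA and gave a mean of 0.12.

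Rarg had 4 probes, and no probe was called. The brightest (mm8 chr15:102063912-102063971) gave log2 ratios of -0.43 and 0.03, which do not share a sign. The next probes gave means of -0.27 and -0.16, negative on both arrays and well above background in both RNAs. The dimmest, well above background in 1 channel of 4, gave -0.08. All 4 means were below 0, between -0.27 and -0.08, and none was past 2-fold.

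Rarb is itself a textbook target of retinoic acid: its promoter holds a response element, a pair of short direct repeats 5 bases apart to which the receptor pair binds. The same layout occurs at Cyp26a1, a degrading enzyme of the wider pathway. Both stretches are shown because the levels of these genes are commonly read as a response to retinoic acid. They come from RefSeq on GRCm38.p6 and end at the base before the transcription start, and capitals mark the hexamer AGGTCA, known as the core of such elements, or its close variants AGTTCA (present in both), GGTTCA (present in Rarb) and GGGTCA (likewise in Rarb), on either strand. The Rarb stretch is chr14:16575477-16575596 on the minus strand, and the Cyp26a1 stretch is chr19:37697688-37697807 on the plus strand, where the repeat lies on the opposite strand.
Rarb: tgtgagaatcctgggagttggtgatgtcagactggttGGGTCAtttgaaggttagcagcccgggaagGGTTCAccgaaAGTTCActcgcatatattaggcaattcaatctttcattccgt
Cyp26a1: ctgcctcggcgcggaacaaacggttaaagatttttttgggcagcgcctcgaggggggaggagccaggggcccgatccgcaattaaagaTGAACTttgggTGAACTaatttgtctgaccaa

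The direct repeat lies between -53 and -37 in Rarb and between -32 and -16 in Cyp26a1, counted from the start. Promoter windows of 300 bases, 250 before to 50 after each start, were held for 7 of the 9 genes in 12 windows, and not for Aldh1a3 and Crabp2. A hexamer of this kind was found in 4 of the 12 windows (Rarb, Rarg and 1 window each of Aldh1a1 and Stra6), against 43.7% of all 32851 windows. The pair 5 bases apart was found in Rarb alone, against 0.0974% of all windows, and among 59 windows of the wider retinoid list below in Cyp26a1 alone. A match of letters is a description, not a site in use or a cause, and its absence from a window says nothing about the receptor. On the arrays Cyp26a1 was higher in the RNA labelled KO by log2 ratios of 0.65 and 0.61, with a log2 signal of 8.31 and 8.21 against 7.66 and 7.60, and was not called. Of 31 genes with such a pair, 8 were on the array under that symbol and 7 passed the background flag in 1 RNA or both. Of the 7, which include Rarb and Cyp26a1, 1 was called higher and 0 lower, against 2.95% and 2.59% of all genes. Their log2 ratios spread from -0.52 to 1.31. The median of the 7 was 0.63, against -0.003 over all genes well above background, and this difference was not tested.

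Cyp26b1, which oxidises retinoic acid to inactive products, had the second largest change of the 9. Its probe (mm8 chr6:84537616-84537675, minus strand) had a log2 signal of 10.75 and 11.06 in the RNA labelled WT and of 7.91 and 7.82 in the RNA labelled KO. The probe was well above background in all 4 channels. The log2 ratios were -2.84 and -3.24, with a mean of -3.04, rank 21 from the lowest, so 12.2% of the signal remained. Cyp26a1 and Cyp26b1 thus lay on opposite sides of 0. Cyp26c1 had no probe under its name.

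**Figure D3:**
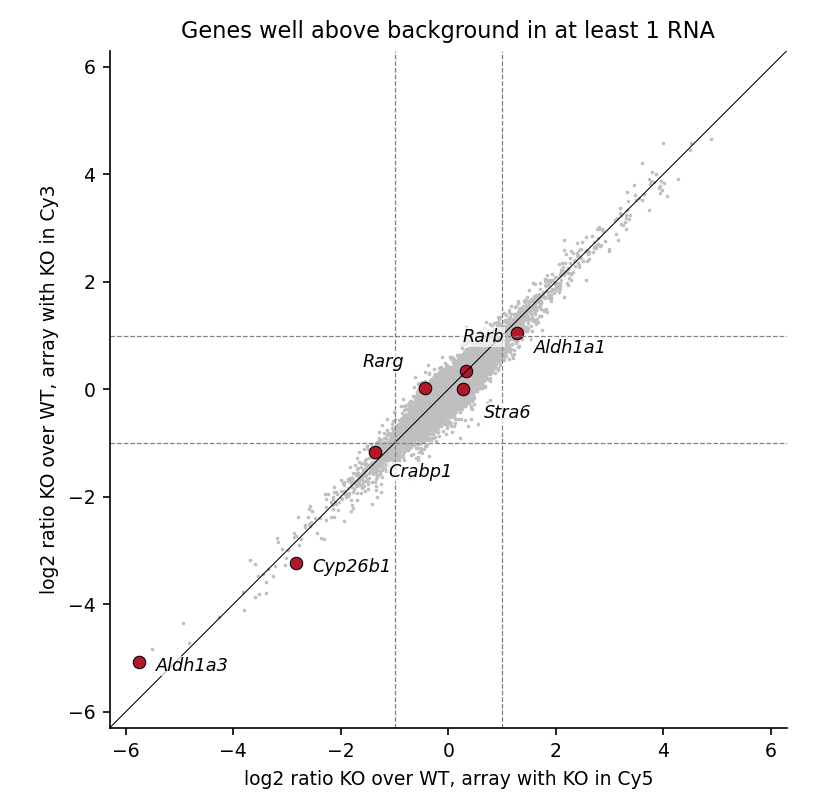
Log2 ratio of KO over WT on the array with KO in Cy5 (horizontal axis) against the array with KO in Cy3 (vertical axis) for the 15877 genes well above background in at least 1 RNA (grey), with the 7 retinoic acid genes among them in red, dashed lines at 2-fold and a solid line of equal values. Aldh1a3 lies at the lower left end of the cloud at -5.75 and -5.08, with Cyp26b1 next among the 7, while Stra6, Rarb and Rarg lie inside its dense centre.

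A wider list of 57 genes, written with earlier results known, covered other parts of retinoid metabolism and response and related aldehyde dehydrogenases, not all of which act on retinoids. It had 55 genes on the array, and 34 passed the background flag in 1 RNA or both. Among the 34, 3 were called higher (Aldh1a7, Aldh2 and Tgm2) and 1 lower (Aldh1l2), against 2.95% and 2.59% of all genes. The median log2 ratio was -0.01 over the 55 and also -0.01 over the 34, against 0.00 over all genes well above background.

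Enzymes listed for the interconversion of retinol and retinal, the latter being the substrate of the Aldh1a enzymes, stayed within 2-fold by the mean of both arrays. Of 16, 13 were well above background, with log2 ratios from -0.89 to 0.59. Among the 13, 0 were called, against 2.95% higher and 2.59% lower of all genes, so the count says little. Dhrs4, which reduces retinal to retinol, was the lowest at -1.02 and -0.76, so it passed the threshold on 1 array. Rdh14 was the highest at 0.60 and 0.57. Rdh10, the enzyme that makes most retinal in the embryo, was at -0.21 and -0.31, and Dhrs3, which turns retinal back to retinol, at 0.54 and 0.32.

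Other aldehyde dehydrogenases held the list's widest range. Aldh1a7 was at a log2 signal of 12.74 and 12.65 in the RNA labelled KO against 8.80 and 8.997 in the RNA labelled WT, a mean log2 ratio of 3.80. It lies next to Aldh1a1 on chromosome 19 and encodes a close relative of it. Aldh2, the mitochondrial enzyme that clears acetaldehyde, was at 1.16 and 1.35 by its brightest probe, and another Aldh2 probe gave 0.01. Aldh1l2, a mitochondrial enzyme of folate metabolism and not of retinoids, was lower at -2.56 and -2.17, with a further probe at -0.91. Its relative Aldh1l1 passed the background flag only in the RNA labelled KO. There it was 1.56-fold higher by the mean ratio, over a reading in the RNA labelled WT not above background. Its size depended on the background handling: the mean log2 ratio was 1.36 with an offset of 10 and 4.01 with Feature Extraction's own ratio, and it was called higher under both.

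Carriers, storage enzymes and carotenoid cleavage enzymes were not detected. None of the 10, among them the serum retinol carrier Rbp4 and the retinol esterifying enzyme Lrat, was well above background on both arrays in either RNA. Of 11 receptors, binding partners and cofactors, 9 were well above background and 0 were called, against 2.95% higher and 2.59% lower of all genes. Rara was at -0.15 and 0.16, Rxra at -0.42 and -0.46, Rxrb at -0.64 and -0.70, and the coactivator Ncoa3 at -0.64 and -0.71. Fabp5, a fatty acid carrier that also binds retinoic acid, was at 0.75 and 0.48.

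Genes known to respond to retinoic acid did not move together. Of 11 on the array, 6 were well above background, 1 was called higher and 0 lower, against 2.95% and 2.59% of all genes. So few genes leave little to read from these counts. Tgm2, a transglutaminase, had a log2 signal of 12.83 and 12.75 in the RNA labelled KO against 10.08 and 10.09 in the RNA labelled WT, and its other probes gave means of 0.85 and 1.19 beside 2.70 for this one. Nr2f2 was at -0.80 and -0.89, Meis1 at -0.22 and -0.32, Nr2f1 at 0.00 and -0.41, Nrip1 at -0.08 and -0.14 and Bhlhe40 at -0.06 and 0.00. In neither RNA did Stra8, Rarres1, Rarres2, Cdx1 or Hoxb1 stand well above background.

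**Figure D4:**
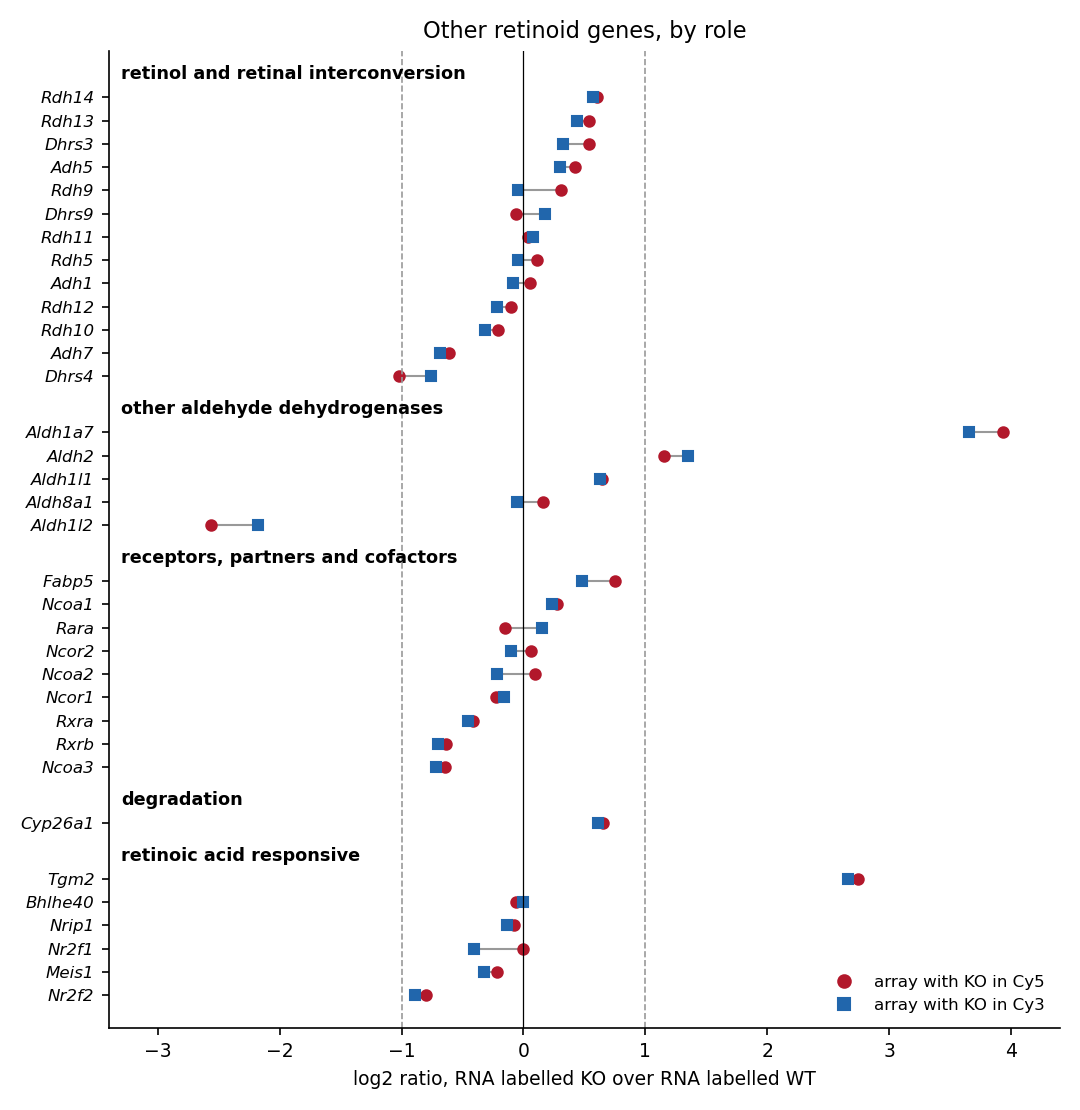
Log2 ratio of the RNA labelled KO over the RNA labelled WT (horizontal axis) for the 34 genes of the wider retinoid list well above background in at least 1 RNA, grouped by role and ordered by mean within a role, with circles for the array with KO in Cy5, squares for the array with KO in Cy3 and dashed lines at 2-fold. Aldh1a7, Aldh2 and Tgm2 lie right of 1 and Aldh1l2 left of -1 on each array, Dhrs4 passes -1 on 1 array, and the other genes lie inside the dashed lines.

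Markers of other cell types that such cultures can hold were measured beside these genes. Of 5 epithelial markers, Krt19 was called higher at 2.09 and 2.15, while in neither RNA did Cdh1, Epcam, Krt8 or Krt18 stand well above background. The log2 of the summed epithelial signal was 9.17 to 9.32 in the RNA labelled KO and 8.38 to 8.47 in the RNA labelled WT. This difference is that of Krt19, at a mean log2 signal of 8.44 against 6.32, as the other summed probes read background. Of 4 mesothelial markers measured, Msln passed the background flag only in the RNA labelled KO, and Wt1, Upk1b and Upk3b in neither. The log2 ratios of Msln were 0.75 and 0.98, over a reading in the RNA labelled WT not above background. The summed list stood at 8.36 to 8.39 in the RNA labelled KO and 8.004 to 8.14 in the RNA labelled WT, a difference that rests mostly on Msln. Of the smooth muscle markers, Cnn1 was lower at -2.08 and -2.14 and the other 3 were not called. Myh11 was at -0.63 and -0.30, Tagln at -0.09 and 0.355, and Acta2 at 0.97 and 0.62, with further Acta2 probes at means of 0.93 and -0.64. The smooth muscle markers thus did not share a direction. Their summed signal was 15.55 to 15.56 in the RNA labelled KO and 15.23 to 15.32 in the RNA labelled WT. No endothelial marker of 4 was well above background, and no blood, neural or neural crest marker was called. The part of these differences in the values of the retinoic acid genes was not tested.

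**Figure D5:**
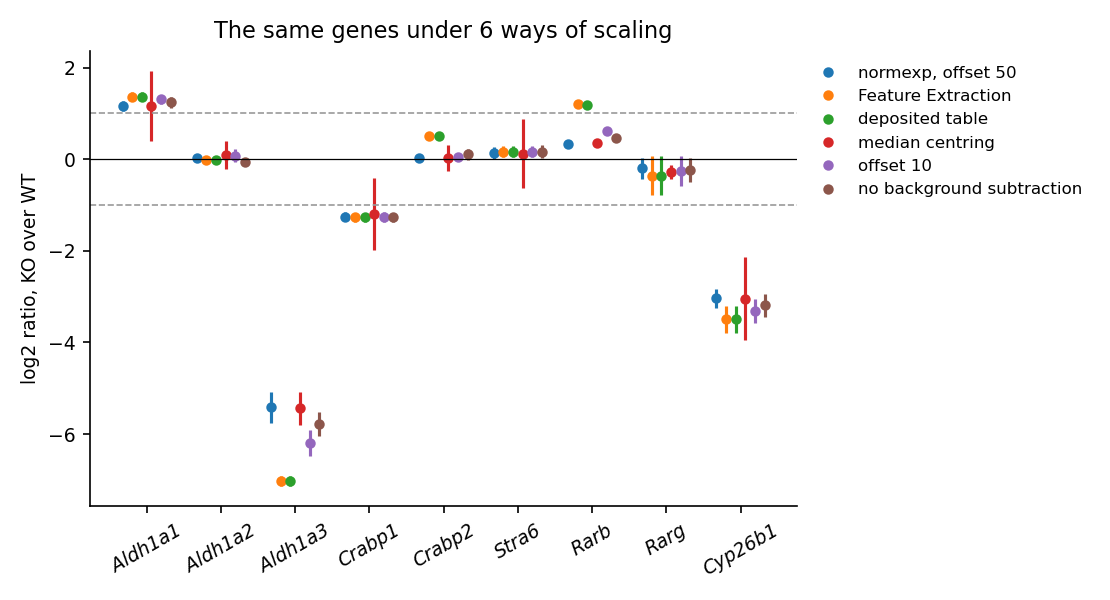
Log2 ratio of KO over WT (vertical axis) of the probe that stands for each of the 9 genes under 6 ways of scaling, with points for the mean of both arrays, vertical lines from one array's value to the other's and dashed lines at 2-fold. Aldh1a3 and Cyp26b1 stay below -1 on each array in all 6, Crabp1 and Aldh1a1 keep their direction but fall inside the dashed lines on 1 array with median centring, and Rarb passes 1 with Feature Extraction's own ratio and the deposited table.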

How the data were processed

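Per the file headers, the arrays were read with Agilent Feature Extraction (version 10.5.1.1 in the submitters' processing notes), and the authors deposited each spot's mean signal and local background as intensity in arbitrary units, with a log10 ratio of Cy5 over Cy3. A further deposited table, of log2 ratios,  matched Feature Extraction's own ratio turned to KO over WT. Probe coordinates are those of the files (mm8), and where they fall in exons, introns or untranslated regions was not analysed here. RefSeq promoters are on GRCm38.p6, and 10 of the 14 member probes had an accession in the reference table, each with the same symbol.

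Intensities were corrected in limma 3.58.1 under R 4.3.3 (normexp, offset 50) and loess normalised within each array, which pulls dim ratios towards 0. Control spots, 1639 of 45018 on each array, and outlier-flagged spots were left out. Flags took 390 and 378 of the non-control spots, which is 0.899% and 0.871%. The spots of a probe were averaged, the array with KO in Cy3 had its sign turned, and both arrays were then averaged to log2 of KO over WT. Signals per RNA are channel values after loess and Aquantile. "Well above background" is Feature Extraction's flag, required in a share of 0.5 or more of a probe's spots and, unless an array count is given, on both arrays. The brightest probe stood for a gene. The rule for named genes took every member and probe, Lats2, the genes of the wider list that were called or well above background in both RNAs, and markers. Genes not above background, and single genes of 1 RNA, were named after their values were seen. Members and lists were chosen with earlier results of these data known, and some genes of the wider list are not reported here. The calls were tested on simulated data. Alternatives were Feature Extraction's own ratio, the deposited table, median centring, an offset of 10, no background subtraction, each array alone, all probes of a gene averaged, other call rules, the methods' t-test and limma's test. The methods' t-test is the one the paper gives for knockout MEFs, with P below 0.05 and at least 2-fold. The paper's supplement names independent cell lines for its MEF arrays, whereas here the test ran on 2 arrays of 1 dye swap. The number of arrays limits the precision, and tests on these arrays measure only the spread between them, which may be technical. Tables and plots used Python 3.11.15, pandas 2.3.3, scipy 1.17.1, statsmodels 0.14.6 and matplotlib 3.10.9.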

Additional observations from a re-analysis of the deposited data

How the results depend on the processing

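Of 157 values recomputed under the alternatives, 45 moved, and of the 72 member ratios among them, from 8 alternatives each, 27 moved by more than the SD between arrays, 22 to a larger and 5 to a smaller size. No called member changed sign in these 8. Over the alternatives the log2 ratio ranged from -7.02 to -3.48 for Aldh1a3 (the latter with its probes averaged), from -3.50 to -2.84 for Cyp26b1, from -1.35 to -1.16 for Crabp1, from 1.06 to 1.37 for Aldh1a1 and from 0.23 to 1.20 for Rarb, whereas Aldh1a2, Rarg and Stra6 reached 0 or changed sign under some. The 3 lower calls became 2 with median centring, which lost Crabp1. The 1 higher call became 2 under the deposited table or Feature Extraction's ratio, both of which added Rarb, and 0 when arrays were median centred, which lost Aldh1a1. Median centring takes out the median dye difference of each array and leaves in place any part that varies with signal. The arrays then correlated with Pearson's r of -0.179 over all probes, against 0.899 with loess. In the wider list, median centring left 2 of the 3 higher calls, Feature Extraction's ratio, the deposited table and an offset of 10 each gave 4 by adding Aldh1l1, and the lower calls ranged from 1 to 2 with an array left out, where the array with KO in Cy5 alone added Dhrs4. Over all probes, 599 were called higher and 500 lower (54.5% higher), 324 and 170 after median centring (65.6% higher), 1280 and 1220 by Feature Extraction's ratio, and 1284 and 1224 in the deposited table. The methods' t-test over the 2 arrays, at its unadjusted threshold and 2-fold, called 524 probes higher and 441 lower, 3 members lower and 0 higher, and 0 of the wider list lower. After Benjamini-Hochberg adjustment it called 0 probes, members and wider-list genes in either direction. Limma's test with the 2-fold limit, without the background flag, called 662 probes higher and 595 lower. The 2-fold limit on the mean of both arrays, with that flag, gave the same counts, and whether these were the same probes was not checked. The cause of these differences between tests was not tested. Each ratio pairs the RNAs on the same array, and no comparison over replicates was possible because there is 1 replicate of each genotype. Signal over background limits Aldh1a2, Crabp2, Rarb and the upstream Aldh1a3 probe.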

Other observations

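The promoter windows of the 7 retinoic acid genes that had one differed widely in base composition. The window of Aldh1a2, which was not well above background in either RNA, held 78.0% G and C, and its ratio of observed to expected CpG of 1.11 exceeded that of 98.3% of all 32851 windows. The windows of Aldh1a1, which was higher in the RNA labelled KO, held 43.3% and 47.0% G and C with CpG ratios of 0.213 and 0.0604. Crabp1 and Cyp26b1, which were lower, had 65.0% and 62.3% with CpG ratios of 0.543 and 0.314. The median over all windows was 52.7%, with a CpG ratio of 0.384. Methylation was not measured in these samples, and no relation between composition and level was tested.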
